A study of Mus musculus with 6 samples.

Results

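P2ry14 encodes a cell-surface receptor for UDP-glucose and related UDP-sugars. It was described here together with P2ry12, P2ry13, P2ry1, P2ry2, P2ry6, P2rx1, P2rx4, P2rx7 and Gpr171, on microarrays of long-term blood stem cells (LT-HSC) of the mouse. The 10 genes were taken by name from the P2Y and P2X receptor families, with Gpr171 added as the gene next to P2ry14, out of 22180 genes that had a probe set annotated with exactly 1 symbol. Where a gene had several probe sets, the brightest by its mean over the 6 arrays stood for it. P2ry14 was chosen by its NPMc+ minus control difference within the pairs of arrays, and the others were listed with results of the same contrast known. The values of the 10 genes in this comparison are therefore a description, and no test is given for them.

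The 3 control arrays each hold RNA of LT-HSC from a pool of control animals, and the 3 NPMc+ arrays each hold RNA of LT-HSC from a pool of animals expressing NPMc+, a mutant nucleophosmin that is found in the cytoplasm. Both groups were C57/BL6 mice with cells taken from bone marrow 4 months after a transplant, and about 5 ng of RNA was amplified per array, per the labels. The promoter or allele behind the mutant, the age of the animals and the number per pool do not appear in the labels used here.

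Purinergic receptors sense nucleotides outside the cell. P2X receptors are ion channels opened by ATP, and P2Y receptors are G protein-coupled receptors for ATP, ADP, UTP, UDP or UDP-sugars. Cells release these nucleotides through membrane channels or when damaged, and enzymes on the cell surface break them down to adenosine. P2ry14 is known from haematopoietic stem and progenitor cells, while P2rx1, P2ry1 and P2ry12 are best known from platelets and P2rx7 from macrophages and lymphocytes.

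All values are on the log2 scale of the deposited table, and a difference is NPMc+ minus control. When same-numbered arrays were paired, the mean of the 2 arrays did not vary between pairs 1, 2 and 3, within 0.001 log2 units for 100% of probe sets. A gene therefore has 3 independent differences, 1 per pair, and its groups do not overlap exactly when all 3 differences have 1 sign. A mean difference is given with its SE from a limma fit with the pair as a block over the 16635 genes tested, n = 3 pairs. Of LT-HSC markers, 11 of 13 were measured, among them Procr at 5.33 in control and 5.41 in NPMc+, Mecom at 5.89 and 7.22 and Kit at 8.94 and 9.37. Markers of other cells were present too: the neutrophil gene Mmp8 had means of 10.82 and 9.02. Xist, expressed from the inactive X, differed by -5.44 in pair 1, -5.39 in pair 2 and 0.48 in pair 3. The Y-linked genes differed the other way by a like amount in pair 1. In pair 2 they differed the other way by much less than Xist, and in pair 3 their directions varied. Uty differed by 4.68, 0.93 and 0.35, Kdm5d by 3.48, 1.29 and -0.67, and Eif2s3y by 5.49, 0.36 and -0.79. The part of sex-linked differences between pools in the values below was not tested. Npm1 itself differed by -0.19 ± 0.18 (SE), a value that does not check the labels.

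P2ry14 was 3.37-fold higher in NPMc+ than in control LT-HSC, the third largest positive difference of the 16635 genes tested. The control arrays read 5.97, 6.11 and 6.002 log2 units in replicates 1 to 3, and the NPMc+ arrays read 7.84, 7.69 and 7.80. All NPMc+ arrays lay above all control arrays. The differences were 1.87, 1.59 and 1.80 log2 units in pairs 1, 2 and 3, with a mean of 1.75 ± 0.18 (SE) and an SD of 0.15. Of the genes tested, 15.3% had a smaller SD over the pairs.

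**Figure D1:**
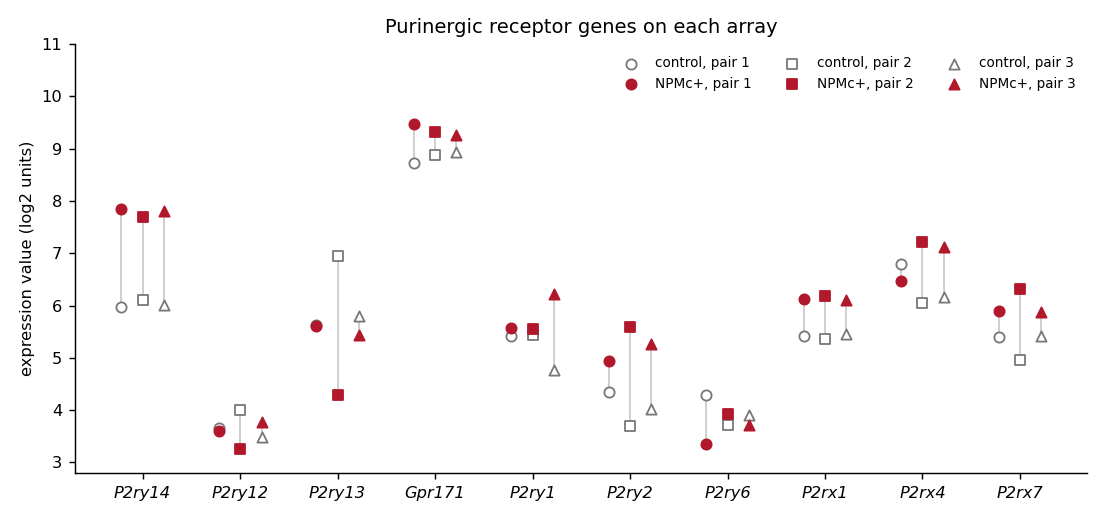
Expression value in log2 units (vertical axis) of the 10 genes (horizontal axis) on each array; open grey symbols are control, filled red symbols NPMc+, the shape gives the pair and a grey line joins the arrays of a pair. The P2ry14 values lie between 5.97 and 6.11 in control and between 7.69 and 7.84 in NPMc+, while the P2ry13 arrays of pair 2 stand at 6.95 and 4.29. Heights of different genes come from different probes and are not compared.

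Promoter windows of 4 genes are shown as examples: both genes with the most even differences, P2ry14 and P2rx1, then P2ry2, with the second largest mean difference, and P2ry13, with the largest spread over the pairs. RefSeq promoters of GRCm38.p6, from 250 bases before to 50 bases after a start, matched 8 of the 10 genes and 13 starts. P2ry14 had 4 starts, and the one farthest upstream (chr3:59153443-59153742, minus strand) is printed. The P2rx1 window is chr11:72998895-72999194, plus strand. Of the 2 overlapping windows of P2ry2, the one at chr7:101012004-101012303 (minus strand) is shown. The P2ry13 window is chr3:59210833-59211132, minus strand. Capitals mark matches on either strand to the letters of 4 motifs. The GATA factors were searched by AGATAA. The RUNX factors were searched by TGTGGT. The letters for the ETS family were AGGAAG. For the MEIS factors they were TGACAG.
P2ry14: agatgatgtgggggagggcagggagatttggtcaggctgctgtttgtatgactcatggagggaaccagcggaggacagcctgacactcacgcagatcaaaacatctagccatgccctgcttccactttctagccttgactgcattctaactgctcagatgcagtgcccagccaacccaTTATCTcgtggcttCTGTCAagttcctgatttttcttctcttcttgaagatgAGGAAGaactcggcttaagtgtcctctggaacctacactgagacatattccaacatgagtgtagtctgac
P2rx1: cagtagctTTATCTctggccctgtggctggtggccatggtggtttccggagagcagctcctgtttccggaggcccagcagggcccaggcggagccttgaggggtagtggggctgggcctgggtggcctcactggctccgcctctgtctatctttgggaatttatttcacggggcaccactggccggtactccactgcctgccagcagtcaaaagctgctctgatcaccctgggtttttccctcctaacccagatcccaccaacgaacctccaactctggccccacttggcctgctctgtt
P2ry2: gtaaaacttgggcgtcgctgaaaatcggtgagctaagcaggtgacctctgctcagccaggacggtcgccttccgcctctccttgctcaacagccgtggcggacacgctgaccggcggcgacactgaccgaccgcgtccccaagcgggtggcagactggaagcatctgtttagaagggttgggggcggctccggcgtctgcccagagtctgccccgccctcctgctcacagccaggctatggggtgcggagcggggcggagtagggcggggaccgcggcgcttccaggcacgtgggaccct
P2ry13: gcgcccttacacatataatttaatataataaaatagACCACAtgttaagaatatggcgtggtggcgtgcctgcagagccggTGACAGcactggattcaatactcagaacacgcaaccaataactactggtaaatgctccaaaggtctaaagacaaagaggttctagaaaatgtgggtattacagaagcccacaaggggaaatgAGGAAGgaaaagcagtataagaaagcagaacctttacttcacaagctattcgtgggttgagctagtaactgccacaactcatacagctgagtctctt

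The printed P2ry14 window held 1 GATA, 1 ETS and 1 MEIS match. Of the other 3 windows of P2ry14, 2 held 1 GATA match each and 1 held 0 matches to the 4 motifs. The P2rx1 window held 1 GATA match. The P2ry13 window held 1 RUNX, 1 ETS and 1 MEIS match, and the P2ry2 window had 0 matches to the 4 motifs. Of all 32851 promoter windows of this length, 11.2% held the GATA letters, 16.8% the RUNX letters, 35.4% the ETS letters and 19.2% the MEIS letters. The matches printed above do not overlap each other, and they are matches of letters, not binding sites. The windows also differed in composition: G and C made up 49.3% of the P2ry14 window with 4 CG steps, 42.3% of the P2ry13 window with 6, 60.7% of the P2rx1 window with 7, and 67.3% of the P2ry2 window with 28. The median over all windows was 52.7%.

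Among the 10 genes, 7 had a positive mean difference, as did 54.9% of all genes tested, and the median difference was 0.59 log2 units, beside 0.03 over all genes tested. All 10 passed the filter on low values. The groups did not overlap for 6 genes in the higher direction (P2ry14, P2ry1, P2ry2, P2rx1, P2rx7 and Gpr171), as for 17.4% of all genes tested. They did not overlap for 1 gene in the lower direction, P2ry13, as for 12.8% of all genes; either way, 30.2% of all genes did not overlap. The groups overlapped for P2ry12, P2ry6 and P2rx4. Because the set was chosen with this contrast known, nothing is read from these counts.

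**Figure D2:**
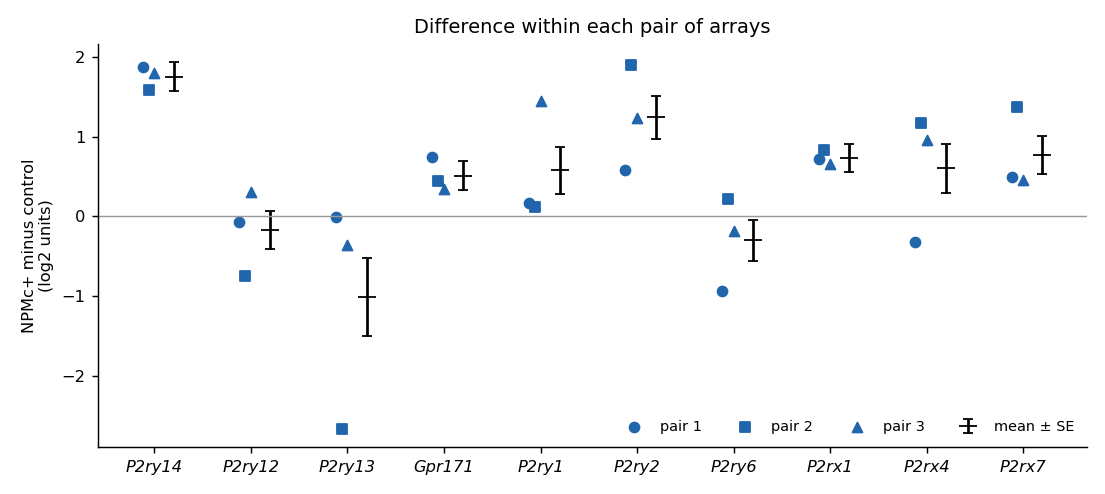
Difference NPMc+ minus control in log2 units (vertical axis) for the 10 genes (horizontal axis) in each pair of arrays (blue symbols), with the mean and its SE from the limma fit (black bars). P2ry14 and P2rx1 have closely grouped pairs, at 1.59 to 1.87 and 0.65 to 0.83, whereas the P2ry13 difference of -2.66 in pair 2 stands apart from -0.01 and -0.36.

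P2ry14, P2ry13 and P2ry12 belong to the P2Y receptors that couple to inhibitory G proteins, and in RefSeq order they lie close together on chromosome 3 with Gpr171. The ADP receptor gene P2ry13 read 5.63, 6.95 and 5.80 in control and 5.61, 4.29 and 5.44 in NPMc+. Control was above NPMc+ in each pair, but most of the difference lay in pair 2: it was -0.01, -2.66 and -0.36 in pairs 1, 2 and 3, a mean of -1.01 ± 0.49 (SE). The SD of 1.44 over its pairs was larger than that of 99.3% of the genes tested. Without pair 2 the mean difference was -0.19.

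P2ry12, the platelet and microglial ADP receptor targeted by clopidogrel, read 3.67, 4.00 and 3.48 in control and 3.59, 3.26 and 3.78 in NPMc+. The groups overlapped, and these values lie near the lowest mean that was tested, 3.01. The mean difference was -0.17 ± 0.24 (SE), and 0.12 without pair 2. In pair 2, where P2ry13 was lowest in NPMc+, P2ry12 differed by -0.75.

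Gpr171, a receptor of the same branch of the family that is known for a peptide ligand and not a nucleotide, read 8.72, 8.88 and 8.93 in control and 9.47, 9.32 and 9.27 in NPMc+. The groups did not overlap, with differences of 0.75, 0.44 and 0.34 and a mean of 0.51 ± 0.19 (SE), which is 1.43-fold. Gpr171 was the only one of the 10 genes with 2 probe sets. The other probe set had a mean difference of 0.44, with 0.88 in pair 1, -0.01 in pair 2 and 0.43 in pair 3, so that in pair 2 it did not share the direction.

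The genes around P2ry14 were compared by position, taking the measured genes among the 6 protein-coding genes to each side in RefSeq order. Gpr171, P2ry14, P2ry13 and P2ry12 all lie within the span of Med12l, a gene related to the Mediator subunit Med12. Med12l was 1.90-fold higher (0.92 ± 0.30 log2 units, SE; limma adjusted p = 0.471). Its differences were 0.44, 0.51 and 1.82 in pairs 1, 2 and 3, so that pair 3 gave most of the mean, unlike P2ry14. It was at an unadjusted p under 0.05 in the limma fit, as were 8.97% of all genes tested (2.33% at a p under 0.01), and without pair 3 it was not, with a difference of 0.47.

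Outside this span the differences were small. Siah2, a ubiquitin ligase gene, differed by -0.15 ± 0.19 (SE) and Selenot, a selenoprotein gene, by -0.02 ± 0.18. Erich6, Clrn1, Gm5709 and Aadacl2fm2 lay below the filter on low values, and Igsf10 was not analysed here. Within the span, the mean differences of Gpr171, Med12l and P2ry14 were positive and those of P2ry13 and P2ry12 negative. Probe positions were not used here, so signal from overlapping genes cannot be told apart.

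**Figure D3:**
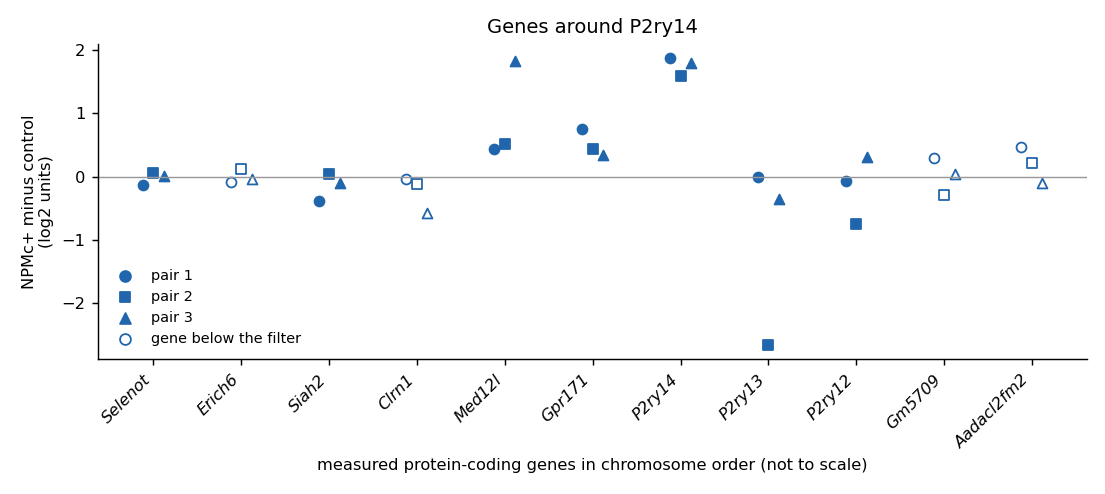
Difference NPMc+ minus control in log2 units (vertical axis) in each pair for P2ry14 and the measured genes among the 6 protein-coding genes to each side, in RefSeq order and not to scale (horizontal axis); open symbols are genes below the filter. P2ry14 is at 1.59 or above in every pair, Med12l reaches 1.82 in pair 3 only, and P2ry13 lies at -2.66 in pair 2.

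P2ry1, P2ry2 and P2ry6 couple mainly to Gq proteins, which activate phospholipase C and release calcium. P2ry2, a receptor for ATP and UTP, read 4.35, 3.70 and 4.03 in control and 4.94, 5.60 and 5.27 in NPMc+. All NPMc+ arrays were above all control arrays, but the size varied between pairs. The differences were 0.59, 1.90 and 1.24, with a mean of 1.24 ± 0.27 (SE), a 2.36-fold difference. P2ry2 ranked 51 among the positive differences of all genes tested, second to P2ry14 within the set.

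P2ry6, a receptor for UDP, is the neighbour of P2ry2 on chromosome 7. It read 4.29, 3.71 and 3.91 in control and 3.35, 3.93 and 3.72 in NPMc+, so that the groups overlapped. The mean difference was -0.30 ± 0.26 (SE), and 0.02 without pair 1. In pair 1 P2ry6 differed by -0.94 and P2ry2 by 0.59, and in pair 2 they differed by 0.22 and 1.90.

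P2ry1, the ADP receptor that starts platelet shape change, read 5.41, 5.44 and 4.77 in control and 5.58, 5.56 and 6.22 in NPMc+. The groups did not overlap, but the arrays of pairs 1 and 2 were close to each other and pair 3 stood apart. The differences were 0.16, 0.12 and 1.45, with a mean of 0.58 ± 0.30 (SE), and without pair 3 the mean was 0.14. P2ry1 lies on chromosome 3 too, but between Mbnl1 and Rap2b.

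Of the ATP-gated channels, P2rx1 had the most even difference. It is the fast channel of platelets and smooth muscle, and read 5.41, 5.36 and 5.45 in control and 6.13, 6.19 and 6.10 in NPMc+. The groups were well apart, with differences of 0.72, 0.83 and 0.65 and a mean of 0.74 ± 0.18 (SE), which is 1.67-fold. The SD of 0.09 over its pairs was the smallest of the 10 genes, and 6.18% of all genes tested had a smaller one.

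P2rx7, the channel that opens at high ATP and is known for inflammasome activation in macrophages, read 5.39, 4.96 and 5.41 in control and 5.89, 6.32 and 5.87 in NPMc+. The groups did not overlap, with differences of 0.49, 1.37 and 0.46 and a mean of 0.77 ± 0.24 (SE), or 1.71-fold. Without pair 2 the mean was 0.48. P2rx4, the neighbour of P2rx7 on chromosome 5 and a channel found also on lysosomes, read 6.80, 6.05 and 6.16 in control and 6.47, 7.22 and 7.11 in NPMc+. Here the groups overlapped, since control was higher in pair 1. The differences were -0.32, 1.17 and 0.95, with a mean of 0.60 ± 0.31 (SE), 1.06 without pair 1 and 0.31 without pair 2. Both channels had their largest difference in pair 2, and they went opposite ways in pair 1.

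**Figure D4:**
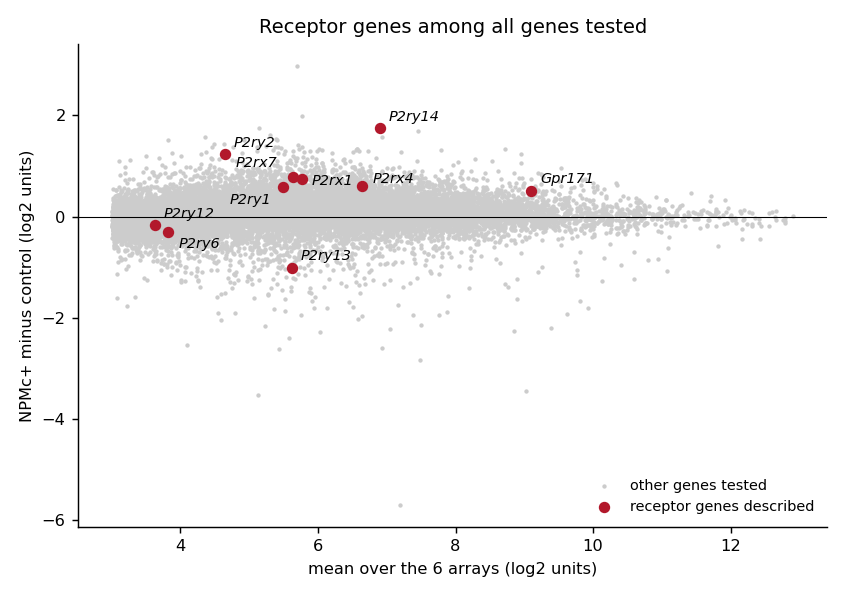
Mean over the 6 arrays (horizontal axis) against the difference NPMc+ minus control (vertical axis), both in log2 units, for the 16635 genes tested (grey) and the 10 receptor genes (red). P2ry14 at 1.75 lies near the top edge of the cloud, P2ry2 at 1.24 follows, and P2ry13 at -1.01 lies among the lower genes.

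Of the genes known from platelets, P2rx1 differed by 0.74 and P2ry1 by 0.58, the latter mainly in pair 3, while P2ry12 differed by -0.17 with overlapping groups. At an unadjusted p under 0.05 in limma, 5.95% of all genes tested were higher and 3.02% lower. Of 8 megakaryocyte and platelet markers measured, 6 were higher and 1 was lower at that bound, and 0 passed the adjusted threshold. Their summed signal was 8.70 to 9.18 log2 units in control and 9.78 to 10.24 in NPMc+, with median differences of 0.57, 0.99 and 0.91 in pairs 1, 2 and 3. Of the 11 LT-HSC markers 6 were higher and 0 lower by the same rule, with a summed signal of 10.64 to 10.78 in control and 11.36 to 11.50 in NPMc+. All marker lists were chosen with earlier results known, so nothing is read from their counts. None of the megakaryocyte, platelet and LT-HSC markers measured lay below the filter. Their part in the receptor differences was not tested. In RNA of sorted pools, a change in the number of cells of a type and a change in RNA per cell cannot be told apart.

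For P2ry13, the markers of neutrophils and monocytes are given beside it. Of 10 measured, 7 passed that bound as lower and 0 as higher, beside 3.02% and 5.95% of all genes tested. They had a summed signal of 13.94 to 14.56 in control and 13.37 to 13.93 in NPMc+. Their median differences were -1.81, -1.25 and -0.07 in pairs 1, 2 and 3, where P2ry13 differed by -0.01, -2.66 and -0.36. The pair with the largest fall varied by marker. Mmp8 differed by -2.77, -2.45 and -0.20, and Retnlg by -1.92, -2.98 and -0.11. Of 8 macrophage markers, 1 was lower and 0 higher, with summed signals of 8.74 to 9.25 and 8.60 to 9.11. Of the 4 mast cell and basophil markers tested, 1 was lower and 0 higher, with summed signals of 9.26 to 10.33 and 9.18 to 10.37 over the 5 measured. Their part in the P2ry13 values was not tested.

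The genes whose 3 differences lay nearest to those of P2ry14 were Clnk, Pvr, Itga2b, Myct1, Afap1l1 and Hoxa5, at Euclidean distances of 0.70 to 0.85 log2 units. Clnk, an adaptor of immune receptor signalling, had differences of 2.05, 1.55 and 1.13 in pairs 1, 2 and 3. Itga2b, which encodes CD41 of the platelet fibrinogen receptor, had 1.55, 1.16 and 1.28. Myct1, with 1.26, 1.33 and 1.33, had the most even pairs of the 6. Likeness over 3 pair differences is a description of size, since each of these genes was lower than P2ry14 by its mean, at 1.31 to 1.57 log2 units.

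The rest of the purinergic system was described by 8 lists with 128 genes, of which 111 were measured and 103 tested. Of the 103, 0 passed the adjusted threshold of 0.05 in limma (smallest adjusted p = 0.245). At an unadjusted p under 0.05 in limma 10 were higher and 12 lower, together 21.4%. Of all genes tested 5.95% were higher and 3.02% lower at that bound. Without pair 1, 3 were higher and 9 lower. The median difference over the 103 genes was 0.04, beside 0.03 over all genes. By list, the share at that bound, either way, was 20% of the 5 further P2 receptors tested and 53.8% of the 13 related receptors. It was 23.1% of the 13 enzymes, 25% of the 12 release and transport genes and 6.67% of the 15 UDP-sugar genes. It was 11.8% of the 34 G protein signalling genes and 30% of the 10 inflammasome genes. The share was 0% of the 1 adenosine receptor and 8.97% of all genes tested. The lists were chosen with earlier results known, so nothing particular to them is read from the shares.

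**Figure D5:**
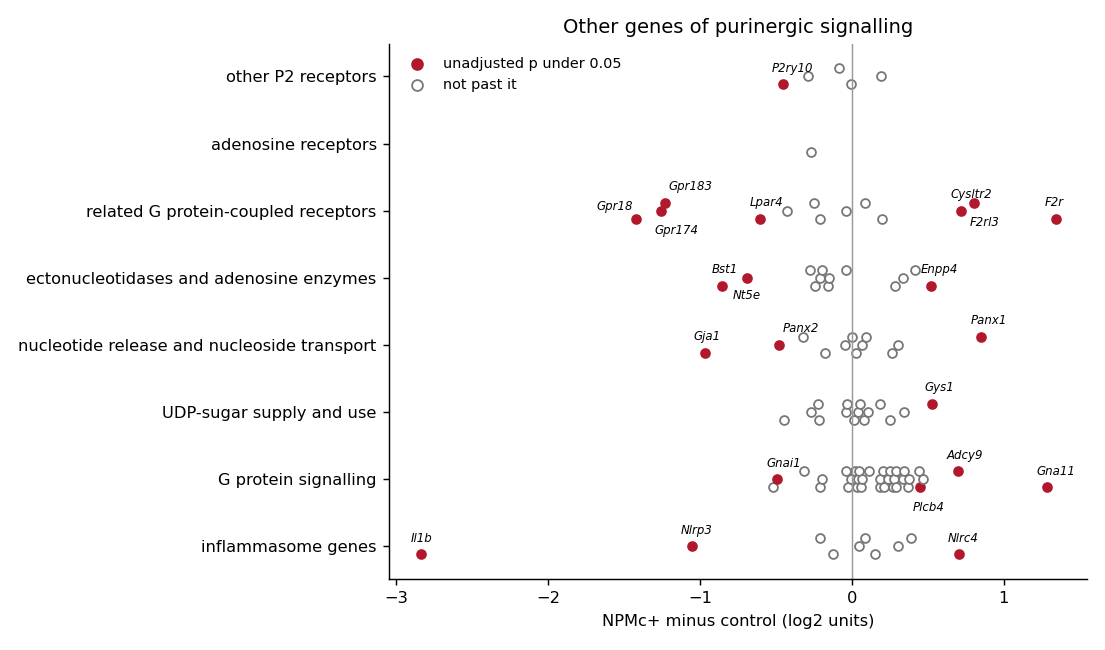
Difference NPMc+ minus control in log2 units (horizontal axis) of the 103 tested genes of the 8 lists (vertical axis, 1 point per gene); red points are at an unadjusted p under 0.05 in limma. Il1b at -2.84 and Nlrp3 at -1.05 are far to the left in the inflammasome list, and F2r at 1.34 and Gna11 at 1.29 far to the right in theirs.

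Of 7 further P2 receptors, 5 were tested, and at an unadjusted p under 0.05 none was higher and 1 was lower. P2ry10, a receptor for lysophosphatidylserine found on lymphocytes, was 1.37-fold lower (-0.45 ± 0.19, SE; limma adjusted p = 0.552). Its control arrays read 4.27, 4.48 and 4.38 and its NPMc+ arrays 4.03, 3.82 and 3.92. It lost its call without any 1 of the pairs and with an intensity trend. P2rx2 differed by -0.08 at a mean of 3.40, and P2rx5 had a mean of 3.34 in both groups. P2ry4 and P2ry10b lay below the filter on low values. The only adenosine receptor measured, Adora3, differed by -0.27 with differences of 0.37, -0.29 and -0.88 in the pairs.

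Of 13 receptors related to the P2Y family, at an unadjusted p under 0.05, 3 were higher and 4 were lower (median -0.21). The higher ones were F2r, the thrombin receptor PAR1, at 2.54-fold (1.34 ± 0.25, SE; limma adjusted p = 0.296), the thrombin receptor F2rl3 at 1.75-fold and the leukotriene receptor Cysltr2 at 1.65-fold. F2r read 8.17, 8.25 and 7.73 in control and 9.27, 9.19 and 9.71 in NPMc+, with no overlap. Gpr18 was 2.67-fold lower (-1.42 ± 0.19, SE; limma adjusted p = 0.245), the oxysterol receptor Gpr183 2.34-fold (-1.23 ± 0.19; limma adjusted p = 0.249), Gpr174 2.38-fold and the lysophosphatidic acid receptor Lpar4 1.52-fold. Pair 3 gave most of the Gpr174 difference (-0.61, -0.58 and -2.57), which was -0.60 without it, and that of Lpar4 was -0.35 without pair 1.

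Gpr174, P2ry10b, P2ry10 and Lpar4 are neighbours on the X chromosome. B cell markers stood lower too: 5 of 7 measured passed that bound as lower and 0 as higher, beside 3.02% and 5.95% of all genes tested. They had a summed signal of 8.89 to 8.99 in control and 7.70 to 7.88 in NPMc+. Of 8 T and NK cell markers 2 were higher (Nkg7 by 0.48 and Gzmb by 0.84). The 3 lower ones were the T cell genes Cd3d, Cd3e and Cd2, at -1.48, -1.33 and -1.49. Summed signals were 10.15 to 10.38 and 10.33 to 10.51. Nkg7, at means of 9.77 and 10.25, was the brightest of the list and set most of the sum, which therefore does not show the T cell genes. Of 6 erythroid markers 5 were lower and 0 higher, with summed signals of 9.61 to 9.86 and 8.80 to 9.02. The part of these cells in the lower receptor values was not tested. The calls of Lpar4 and F2rl3 were lost without pair 1 and without pair 2, and that of Cysltr2 without pair 1.

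Of the enzymes that act on nucleotides and adenosine, outside or inside the cell, 13 were tested. By the rule above, 1 was higher and 2 were lower. Nt5e, the CD73 enzyme that makes adenosine from AMP, was 1.61-fold lower (-0.69 ± 0.20, SE; limma adjusted p = 0.452). Its control arrays read 5.31, 5.46 and 5.65 and its NPMc+ arrays 4.95, 4.80 and 4.61, without overlap. Bst1, the CD157 enzyme that uses NAD, was 1.81-fold lower (-0.85 ± 0.19; limma adjusted p = 0.340), and the phosphodiesterase gene Enpp4 was 1.44-fold higher. Without pair 3 the call of Nt5e was lost, and Enpp4 lost its call without any 1 of the pairs.

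Of the genes for nucleotide release and nucleoside transport, 12 were tested; 1 was higher and 2 were lower by that rule. Panx1, the pannexin channel through which cells release ATP, was 1.81-fold higher (0.85 ± 0.32, SE; limma adjusted p = 0.514), with differences of 0.70, 0.12 and 1.75. Without pair 1 or without pair 3 it lost its call, and without pair 3 it differed by 0.41. Gja1, which encodes connexin 43, was 1.96-fold lower (-0.97 ± 0.19; limma adjusted p = 0.302), with differences of -1.14, -0.75 and -1.01. Panx2 was 1.39-fold lower and lost its call without any 1 of the pairs.

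UDP-sugars are the ligands of P2ry14. Of 15 genes for their supply and use that were tested, 1 was higher and none was lower at that bound, a share of 6.67% beside 8.97% of all genes tested, and the median was 0.04. Gys1, the glycogen synthase that consumes UDP-glucose, was 1.44-fold higher (0.53 ± 0.19, SE; limma adjusted p = 0.513) and lost its call without pair 1 or pair 2. Of the genes with the highest means in this list, the solute carrier gene Slc35b1 differed by 0.19. Uap1, which makes UDP-N-acetylglucosamine, differed by 0.08, and Ugcg, which uses UDP-glucose for glycolipids, by -0.27. Ugp2, the enzyme that makes UDP-glucose, differed by 0.02, with 0.49, -0.23 and -0.21 in the pairs. It was named for its role after its value was seen.

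Of 34 genes of G protein signalling, 3 were higher and 1 was lower at that bound (median 0.20). Gna11, an alpha subunit of the Gq family through which P2ry1, P2ry2 and P2ry6 signal, was 2.44-fold higher (1.29 ± 0.21, SE; limma adjusted p = 0.269). It read 5.56, 5.28 and 5.17 in control and 6.41, 6.68 and 6.79 in NPMc+, with all NPMc+ arrays above all control arrays. The adenylate cyclase gene Adcy9 was 1.62-fold higher and the phospholipase gene Plcb4 1.37-fold higher. P2ry14 signals through inhibitory alpha subunits, which differed in direction. Gnai1, at a mean of 4.13, was 1.41-fold lower (-0.49 ± 0.19; limma adjusted p = 0.526), and lost its call without any 1 of the pairs. Gnai2, at a mean of 8.88, differed by 0.34 ± 0.22 and Gnai3, at 8.75, by 0.24 ± 0.18 (SE); neither was called, and both were named after their values were seen. Plcb4 lost its call without pair 1 or pair 3.

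P2rx7 is known for activating the Nlrp3 inflammasome, and the list also holds sensors of other inflammasomes. Of 10 genes tested, 1 was higher and 2 were lower at that bound. Il1b, the cytokine whose maturation the inflammasome triggers, was 7.14-fold lower (-2.84 ± 0.53, SE; limma adjusted p = 0.296). It read 9.15, 9.55 and 8.02 in control and 5.83, 5.43 and 6.95 in NPMc+, and pair 3 had the smallest difference at -1.07. Nlrp3, the inflammasome sensor, was 2.08-fold lower (-1.05 ± 0.18; limma adjusted p = 0.269), at 6.71, 6.83 and 6.67 in control and 5.71, 5.59 and 5.75 in NPMc+. Nlrc4, the sensor of a separate inflammasome, was 1.63-fold higher; without pair 1 it differed by 0.41 and lost its call. P2rx7 was higher in NPMc+ in each pair, while Il1b and Nlrp3 were lower. These are group differences, and no relation between the genes across arrays is read from them. The neutrophil and monocyte markers above were lower too by their median, and their part in these values was not tested.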

How the data were processed

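RNA of 6 LT-HSC pools was measured on 1 array each. Per the submitters' processing notes, the deposited log2 expression values came from RMA, which corrects background, normalizes arrays and summarises probe sets; no version or later step is named there. The values show that a replicate effect had been removed: taken from the group means, the deviations of both arrays of a number had a correlation of -1 in each of the 3 pairs. Only the within-pair differences carry a spread, so the fit used the pair as a block, with 2 residual and 4.54 prior degrees of freedom. Precision rests on the 3 within-pair differences of a gene. The labels name separate pools. Each p-value rests on the spread of a gene's 3 within-pair differences, drawn by limma towards a variance pooled over all genes tested. The prior degrees of freedom outnumber the residual ones, so the pooled variance weighs more. For P2rx1 the SD over the pairs was 0.09 and the SE 0.18. Spread taken away with the replicate effect is not part of it.

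Of 41345 probe sets, 23521 had 1 symbol, 1814 several and 16010 none in the platform annotation. A filter at the 25th percentile of gene means left 16635 genes. Differences were tested with limma 3.58.1 in R 4.3.3 (lmFit, eBayes, two-sided, Benjamini-Hochberg over all genes tested), checked on simulated data, and drawn with matplotlib 3.10.9. RefSeq gene order and promoters are those of GRCm38.p6. Member proteins were not used here. The members, the 8 pathway lists, the 8 marker lists and the tests were chosen with earlier results of these data known. Named are all members, the list genes at an unadjusted p under 0.05 (with the highest means up to 3 where fewer than 2), the neighbours of P2ry14 and the 6 genes nearest to it in their pair differences, except olfactory and vomeronasal receptors, small RNAs, Riken clones and predicted genes. Alternatives were a fit without the block, quantile normalization, an intensity trend, other filters, the mean of a gene's probe sets, and leaving out each pair.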

Additional observations from a re-analysis of the deposited data

How the results depend on the processing

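Over 9 alternatives, the difference of P2ry14 stayed between 1.68 and 1.84 log2 units, and that of P2rx1 between 0.66 and 0.78. Only quantile normalization and leaving out a pair could move these 2 values. The other alternatives change the SE or the genes tested, and both genes have 1 probe set, so their differences were fixed there. Leaving out a pair moved other members by more: P2ry13 lay between -1.51 and -0.19, P2ry1 between 0.14 and 0.81 and P2ry2 between 0.91 and 1.57. P2rx4 lay between 0.31 and 1.06, P2rx7 between 0.48 and 0.93 and Gpr171 between 0.39 and 0.59. P2ry12 (0.12 without pair 2) and P2ry6 (0.02 without pair 1) changed sign. The 50th percentile filter left out P2ry12 and P2ry6. With no replicate block, which counts more degrees of freedom than the values hold, 828 genes passed the adjusted threshold in limma, against 0 with the block; at an unadjusted p under 0.05, 2500 genes were higher and 1638 lower (989 and 503 with the block), and of the pathway genes 19 were higher and 21 lower. Leaving out 1 pair at a time gave 0 to 24 genes past the adjusted threshold, 666 to 934 higher and 435 to 489 lower at an unadjusted p under 0.05, and 3 to 9 pathway genes higher and 8 to 9 lower. Of the 23 pathway and neighbour genes at an unadjusted p under 0.05, 11 lost that call without pair 1, 7 without pair 2 and 8 without pair 3, 4 with an intensity trend, and 2 each after quantile normalization (Gys1 and Plcb4) and with the 50th percentile filter (P2ry10 and Plcb4). The level of Gpr171 changed with the mean of its probe sets, to 7.86 in control and 8.33 in NPMc+. Signal over background was not used here, so values of dim genes such as P2ry12 have no detection limit beside them.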
